A study of Mus musculus with 8 samples.

Results

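The 9 genes described here are transcription regulators that mark layers and projection neurons of the cerebral cortex: Cux1, Cux2 and Rorb for the upper layers, Fezf2, Bcl11b, Tbr1, Foxp2 and Tle4 for the deep layers, and Neurod6 for projection neurons of all layers. They were taken by symbol from a table of 17644 genes, and all 9 were found and passed the filter on low values. The assay was CAGE (cap analysis of gene expression), in which each sequenced tag stands for the capped start of an RNA, and levels are in CPM (tags scaled to a common library total). The tissue came from 11-week-old male C57BL/6NCrSlc mice in which a cavity had been aspirated from the motor cortex, and it lay within a 1.0 mm margin of that cavity. In the 1-week group (4 samples) the brain was removed 1 week after the lesion, and in the no-delay group (4 samples) it was removed at once, so that both groups carry the lesion and neither stands for intact cortex. The comparison asks how the host tissue around an older cavity differed from that around a fresh one.

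In the neocortex, excitatory neurons are stacked in layers that differ in their targets. Neurons of the upper layers project mainly to other cortical areas, while those of the deep layers send axons to the spinal cord, brainstem, striatum and thalamus. The regulators named here help to set these identities during development and stay active in the adult, partly by repressing each other, so that their transcripts serve as layer markers in bulk tissue. Several also have transcripts outside their layer: Bcl11b and Foxp2 in striatal projection neurons, and Cux1 in many cell types.

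Depth was 8278855 to 13998941 reads per library. A library is called here by its group and the first 6 bases of its tag, and the 9 genes had from 108 (Foxp2) to 1557 (Rorb) reads in a library. Of 14718 genes tested, 36.8% were called (limma, Benjamini-Hochberg adjusted p under 0.05), 23.4% as higher and 13.4% as lower at 1 week, and the median log2 fold change was 0.06. The share of called genes that were higher was 63.6% in the deposited CPM, and it was 53.2% after TMM scaling, 51.4% after median-of-ratios scaling and 43.4% after quantile normalization. General neuron genes averaged 8.07 to 8.16 in the 1-week libraries and 8.23 to 8.36 in the no-delay libraries on the log2(CPM + 1) scale. In bulk tissue, fewer cells of a type and less RNA per cell cannot be told apart.

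Rorb, Fezf2, Bcl11b and Neurod6 are the genes whose calls held under every alternative tried, and the sequence before the start of each is shown because CAGE counts tags at gene starts. Each is the 250 bases before the first start listed for the gene in RefSeq (build GRCm38.p6), on the strand of the gene. Capitals mark matches on either strand to the core of a TATA box, spelled TATAA, to the CCAAT box, spelled as its name, to the GC box, spelled GGGCGG, or to the E-box, spelled CANNTG, and no 2 matches overlap in these windows.
Rorb (chr19:19111197-19111446, minus strand): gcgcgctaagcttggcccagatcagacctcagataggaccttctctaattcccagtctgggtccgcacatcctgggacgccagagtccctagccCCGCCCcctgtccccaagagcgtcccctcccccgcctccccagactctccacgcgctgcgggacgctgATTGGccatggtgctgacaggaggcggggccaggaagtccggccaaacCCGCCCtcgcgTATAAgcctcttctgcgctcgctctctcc
Fezf2 (chr14:12345866-12346115, minus strand): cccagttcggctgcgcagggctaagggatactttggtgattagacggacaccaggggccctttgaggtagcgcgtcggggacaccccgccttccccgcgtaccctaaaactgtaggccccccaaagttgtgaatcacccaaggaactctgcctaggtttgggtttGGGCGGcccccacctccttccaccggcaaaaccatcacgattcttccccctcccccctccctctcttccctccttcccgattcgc
Bcl11b (chr12:108003415-108003664, minus strand): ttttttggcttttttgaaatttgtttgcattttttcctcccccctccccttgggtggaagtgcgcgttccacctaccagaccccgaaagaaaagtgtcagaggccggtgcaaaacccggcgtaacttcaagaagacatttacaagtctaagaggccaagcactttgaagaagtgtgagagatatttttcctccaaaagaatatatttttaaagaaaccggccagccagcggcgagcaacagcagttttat
Neurod6 (chr6:55681264-55681513, minus strand): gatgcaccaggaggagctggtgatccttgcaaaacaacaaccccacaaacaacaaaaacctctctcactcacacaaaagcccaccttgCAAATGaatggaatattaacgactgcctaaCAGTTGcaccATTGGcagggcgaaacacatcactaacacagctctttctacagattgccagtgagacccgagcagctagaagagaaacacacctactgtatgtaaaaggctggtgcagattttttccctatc
The Rorb window held a TATA box core whose first base lay at position -29 from the start, a CCAAT box match at -88, and GC box matches at -156 and -40. The Fezf2 window held 1 GC box match at -85, the Neurod6 window held a CCAAT box match at -122 and E-box matches at -162 and -132, and none of these letters were found in the Bcl11b window. Of 32851 windows of the same length in the RefSeq table, 22.8% hold TATAA, 33.8% CCAAT, 32.7% GGGCGG and 66.2% CANNTG. GC content was 66.0% for Rorb, 61.2% for Fezf2, 46.0% for Neurod6 and 44.8% for Bcl11b, against a median of 52.4% over all windows. Windows were matched for 8 of the 9 genes (11 windows, since Cux2, Rorb and Tle4 have 2 each), and Foxp2 had none. The deposited table gives levels by gene and not by start, and which start gave the tags was not analysed here.

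All 3 upper-layer regulators rose at 1 week, and 2 of the 5 deep-layer regulators and Neurod6 fell. Thus 3 of the 9 genes were called higher, beside 23.4% of all genes tested, and 3 of the 9 were called lower, beside 13.4%. None of the upper-layer genes fell and none of the deep-layer genes rose. The libraries of the groups did not overlap for Rorb, which lay above (beside 22.7% of genes tested), nor for Fezf2, Bcl11b and Neurod6, which lay below (beside 12.0%).

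**Figure D1:**
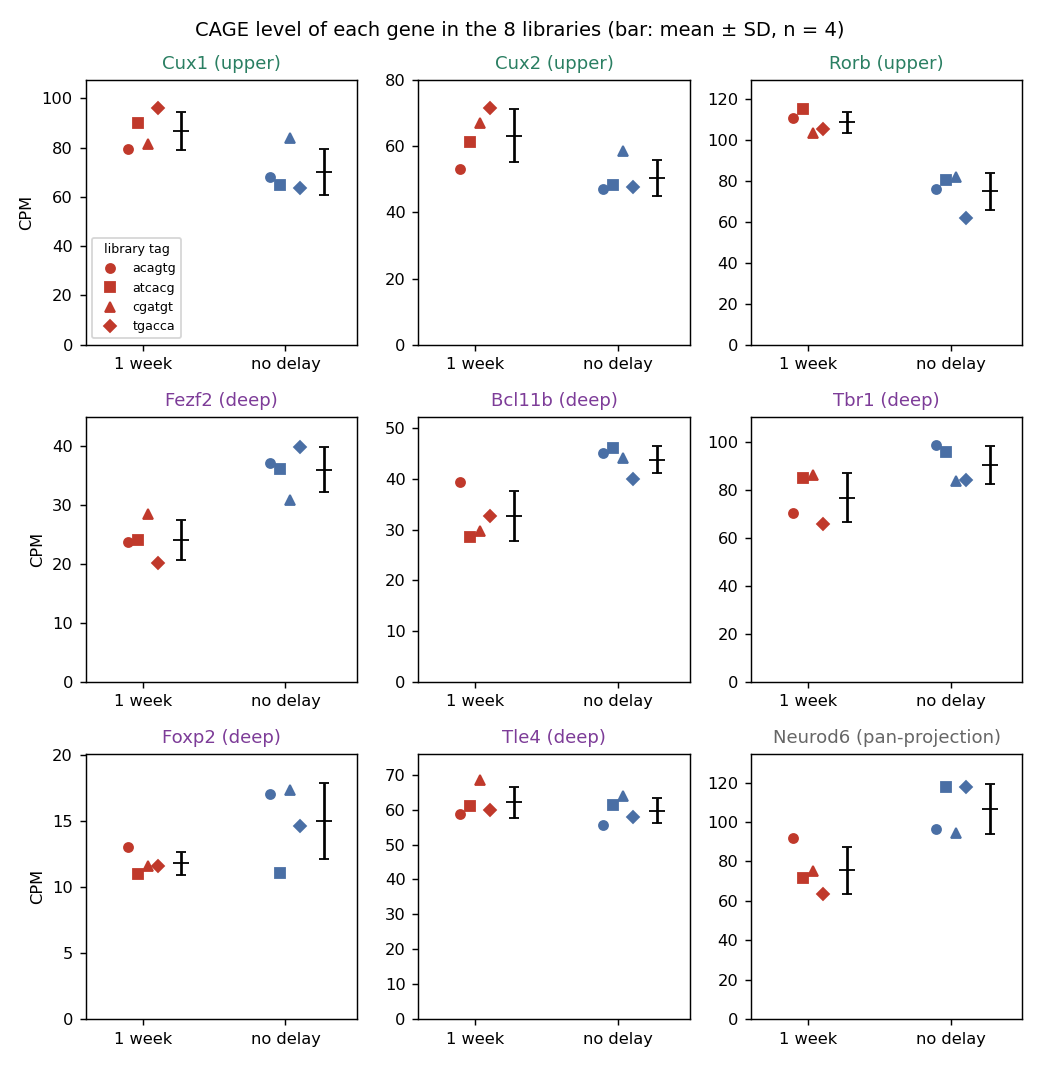
Level in CPM (vertical axes, from 0) of the 9 genes in the 4 libraries of the 1-week group (red, left) and the 4 of the no-delay group (blue, right), with the mean and SD beside each group and 1 symbol per library tag. Rorb lies between 104 and 115 CPM at 1 week and between 61.9 and 81.8 CPM without delay, whereas Fezf2 lies between 20.2 and 28.5 CPM at 1 week and between 30.8 and 39.9 CPM without delay.

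Rorb encodes a retinoid-related orphan nuclear receptor that marks layer IV and was the upper-layer gene with the largest difference. Its 1-week libraries stood at 111, 115, 104 and 106 CPM and its no-delay libraries at 76.0, 80.3, 81.8 and 61.9 CPM (the library tagged acagtg first, the one tagged atcacg next, then the one tagged cgatgt and last the one tagged tgacca, as for all values by library that follow). Every 1-week library was above every no-delay library. The mean was 109 CPM ± 5.15 at 1 week and 75.0 CPM ± 9.07 without delay (SD, n = 4 each), a ratio of 1.45, with a log2 fold change of 0.54 on the log2(CPM + 1) scale (SE 0.09, 95% interval 0.35 to 0.73, limma adjusted p = 4.19e-04). Among all genes tested, 13.7% had a higher log2 fold change. The call held under all 19 alternatives, with adjusted p of at most 0.00234.

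Cux1 and Cux2 encode paralogous Cut-like homeodomain proteins of layers II to IV, and their means at 1 week were 1.24 and 1.26 times those without delay. Cux1 stood at 79.4, 89.9, 81.7 and 96.0 CPM in the 1-week libraries and at 68.2, 64.8, 84.1 and 63.6 CPM in the no-delay libraries. The no-delay library tagged cgatgt was the only one of its group to reach into the 1-week range. The Cux1 mean was 86.7 CPM ± 7.66 at 1 week and 70.2 CPM ± 9.46 without delay (SD, n = 4 each), with a log2 fold change of 0.31 (SE 0.09, 95% interval 0.10 to 0.51, limma adjusted p = 0.0234). Cux2, which is more restricted to cortical upper-layer neurons, stood at 53.0, 61.2, 67.2 and 71.5 CPM at 1 week and at 47.0, 48.3, 58.4 and 47.7 CPM without delay. The same no-delay library lay above the lowest 1-week library. The Cux2 mean was 63.2 CPM ± 8.0 at 1 week and 50.4 CPM ± 5.39 without delay (SD, n = 4 each), with a log2 fold change of 0.32 (SE 0.10, 95% interval 0.10 to 0.54, limma adjusted p = 0.0252).

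The Cux1 and Cux2 calls were close to the threshold. The Cux1 call was lost without the 1-week libraries tagged atcacg (adjusted p = 0.0637) or tgacca (adjusted p = 0.0573), and without the no-delay libraries tagged acagtg (adjusted p = 0.0506), atcacg (adjusted p = 0.0680) or tgacca (adjusted p = 0.0633). The Cux2 call was lost without the 1-week libraries tagged cgatgt (adjusted p = 0.0751) or tgacca (adjusted p = 0.0625), and without the no-delay libraries tagged acagtg (adjusted p = 0.0635), atcacg (adjusted p = 0.0628) or tgacca (adjusted p = 0.0591). With TMM scaling the Cux2 call was lost as well (adjusted p = 0.0520), and with median-of-ratios scaling both were (adjusted p = 0.0540 for Cux1 and 0.0566 for Cux2). Without the no-delay library tagged cgatgt, the highest of its group for both, the log2 fold changes were 0.40 for Cux1 and 0.39 for Cux2 (limma adjusted p = 0.00356 and 0.0108). An antisense gene model that overlaps Cux2, Gm15637, reached at most 0.14 CPM, and the use of strand in counting is not stated.

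Fezf2 encodes a zinc finger repressor needed to specify the subcortically projecting neurons of layer V, and it fell by the largest factor of the 9 genes. It stood at 23.7, 24.1, 28.5 and 20.2 CPM in the 1-week libraries and at 37.1, 36.1, 30.8 and 39.9 CPM in the no-delay libraries, without overlap. The mean was 24.1 CPM ± 3.40 at 1 week and 36.0 CPM ± 3.81 without delay (SD, n = 4 each), a ratio of 0.670, with a log2 fold change of -0.56 (SE 0.11, 95% interval -0.80 to -0.32, limma adjusted p = 0.00169). Of all genes tested, 3.44% had a lower log2 fold change.

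Bcl11b, also known as Ctip2, encodes a zinc finger factor that acts with Fezf2 in layer V neurons. It stood at 39.5, 28.5, 29.8 and 32.7 CPM in the 1-week libraries and at 45.2, 46.1, 44.2 and 39.9 CPM in the no-delay libraries. The groups did not overlap, but the gap between them was small, at 39.5 CPM for the highest 1-week library and 39.9 CPM for the lowest no-delay library. The mean was 32.6 CPM ± 4.90 at 1 week and 43.8 CPM ± 2.73 without delay (SD, n = 4 each), with a log2 fold change of -0.42 (SE 0.10, 95% interval -0.64 to -0.21, limma adjusted p = 0.00558). The calls of Fezf2 and Bcl11b held under all 19 alternatives, with adjusted p of at most 0.0062 and 0.0440.

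The other deep-layer genes, which mark mainly layer VI, were not called. Tbr1, a T-box factor of corticothalamic neurons, stood at 70.2, 84.8, 86.2 and 65.7 CPM in the 1-week libraries and at 98.7, 95.7, 83.5 and 84.0 CPM in the no-delay libraries. These ranges overlap through the 1-week libraries tagged atcacg and cgatgt. Its log2 fold change was -0.24 (SE 0.10, 95% interval -0.45 to -0.03, limma adjusted p = 0.0707). With TMM scaling it was called (log2 fold change -0.30, limma adjusted p = 0.0220), as it was without the 1-week library tagged cgatgt (adjusted p = 0.0434).

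Foxp2, a forkhead factor of layer VI and of striatal neurons, had the lowest level of the 9 genes. It stood at 13.1, 11.0, 11.6 and 11.6 CPM in the 1-week libraries and at 17.0, 11.1, 17.3 and 14.6 CPM in the no-delay libraries. The no-delay library tagged atcacg lay within the 1-week range and the others lay above it. The log2 fold change was -0.31 (SE 0.13, 95% interval -0.60 to -0.01, limma adjusted p = 0.0949). Foxp2 was called with TMM scaling (limma adjusted p = 0.0465), with quantile normalization (log2 fold change -0.53, limma adjusted p = 0.00638) and without the no-delay library tagged atcacg (log2 fold change -0.43, limma adjusted p = 0.0124).

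Tle4, a Groucho-type corepressor of layer VI neurons, stood at 58.8, 61.1, 68.4 and 59.9 CPM in the 1-week libraries and at 55.6, 61.4, 64.0 and 58.0 CPM in the no-delay libraries. The ranges overlap almost fully. Its log2 fold change was 0.05 with a 95% interval of -0.10 to 0.21 (SE 0.07, limma adjusted p = 0.594), and the sign changed with TMM scaling, where the value was -0.004.

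Neurod6 encodes a basic helix-loop-helix factor of pyramidal neurons in all layers. It stood at 91.9, 71.8, 75.2 and 63.3 CPM in the 1-week libraries and at 96.6, 118, 94.7 and 118 CPM in the no-delay libraries. Every 1-week library lay below every no-delay library, with the 1-week library tagged acagtg the nearest. The mean was 75.5 CPM ± 12.0 at 1 week and 107 CPM ± 12.8 without delay (SD, n = 4 each), a ratio of 0.708, with a log2 fold change of -0.50 (SE 0.11, 95% interval -0.74 to -0.26, limma adjusted p = 0.00410). The call held under all 19 alternatives, with adjusted p of at most 0.0225.

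**Figure D2:**
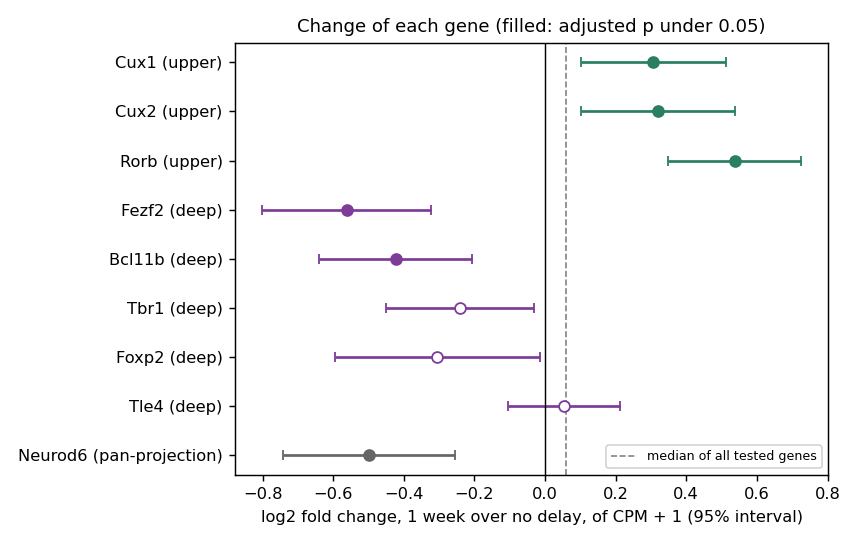
Log2 fold change of log2(CPM + 1), 1 week over no delay (horizontal axis), of each gene with its 95% interval from limma, filled where the adjusted p is under 0.05; the dashed line is the median of all genes tested, 0.06. The 3 upper-layer genes lie to the right of it at 0.31 to 0.54, and Fezf2, Bcl11b and Neurod6 lie to the left at -0.56, -0.42 and -0.50.

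Set side by side within each library, the upper-layer genes stood higher over the deep-layer genes at 1 week than without delay. The mean log2(CPM + 1) of Cux1, Cux2 and Rorb minus that of Fezf2, Bcl11b, Tbr1, Foxp2 and Tle4 was 1.13, 1.34, 1.18 and 1.48 in the 1-week libraries and 0.51, 0.62, 0.80 and 0.47 in the no-delay libraries. The lowest 1-week value was above the highest no-delay value. The group means were 1.28 ± 0.16 and 0.60 ± 0.15 (SD, n = 4 each, 1 week and no delay in this order), a difference of 0.68, to which the upper-layer mean contributed 0.39 and the deep-layer mean -0.30. A shift of all genes in a library cancels in this difference up to the pseudocount, and no test was made of it because it is a score over chosen genes. It was 0.46 when Neurod6 was counted with the upper-layer genes, and from 0.61 to 0.77 under the other settings tried, which include leaving out each library and each gene.

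**Figure D3:**
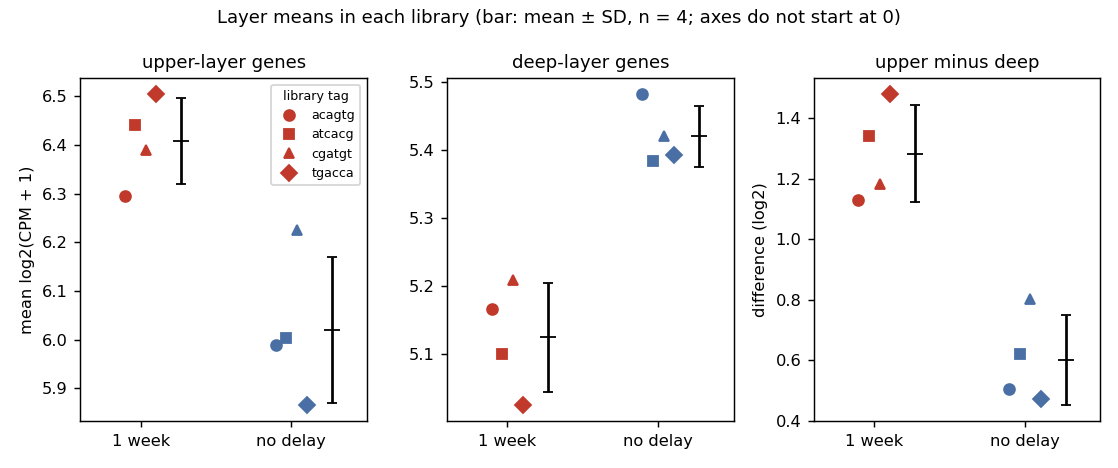
Mean log2(CPM + 1) of the 3 upper-layer genes (left), of the 5 deep-layer genes (middle) and the difference between them (right) in each library, with the mean and SD of each group, on vertical axes that do not start at 0. The differences lie between 1.13 and 1.48 at 1 week and between 0.47 and 0.80 without delay.

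Ratios of single genes within a library restate these differences for a pair of genes at a time. Rorb over Fezf2 was 4.67, 4.78, 3.64 and 5.22 in the 1-week libraries and 2.05, 2.22, 2.66 and 1.55 in the no-delay libraries. Cux2 over Bcl11b was 1.34, 2.15, 2.25 and 2.18 at 1 week and 1.04, 1.05, 1.32 and 1.20 without delay, so that the lowest 1-week value was only just above the highest no-delay value. Cux1 over Tbr1 overlapped between the groups, at 0.948 to 1.46 at 1 week and 0.678 to 1.01 without delay. Of all 15 pairs of an upper-layer and a deep-layer member, 11 had every 1-week ratio above every no-delay ratio, and the rest overlapped.

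The order of the 9 genes by level also differed between the groups. CAGE counts 1 tag per capped end, so levels are not scaled by gene length and are compared here as tag levels. At 1 week Rorb was the highest, at 109 CPM, and its range was clear of that of Cux1, the next, at 86.7 CPM. Tbr1, Neurod6, Cux2 and Tle4 followed at 76.7, 75.5, 63.2 and 62.1 CPM, each overlapping its neighbour. Bcl11b, Fezf2 and Foxp2 came last at 32.6, 24.1 and 11.8 CPM and did not overlap. The lowest 1-week Bcl11b library, at 28.52 CPM, was only just above the highest 1-week Fezf2 library, at 28.5 CPM. Without delay Neurod6 was the highest, at 107 CPM, and overlapped Tbr1 at 90.4 CPM. Rorb was the third there, at 75.0 CPM, and overlapped Cux1 at 70.2 CPM.

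Other genes of each layer were read from lists drawn up beside these 9. Of 20 further deep-layer genes, 9 fell, none rose and 11 were not called (of all genes tested, 13.4% fell and 23.4% rose). Their median log2 fold change was -0.17. The 15 general neuron genes described below had 6 lower, none higher and a median of -0.20, so a fall of this size was not limited to deep-layer genes. When a library was left out, from 6 to 9 of the 20 were called lower and none higher. Nr4a2, an orphan nuclear receptor that marks the deepest cortical neurons and is also induced by activity, averaged 7.81 CPM ± 2.46 at 1 week and 15.2 CPM ± 2.10 without delay (SD, n = 4 each, log2 fold change -0.91, limma adjusted p = 0.00215). Crym, which encodes mu-crystallin and marks corticospinal neurons, averaged 40.3 CPM ± 7.47 at 1 week and 65.8 CPM ± 11.2 without delay (log2 fold change -0.70, limma adjusted p = 0.00215). Rbp4, a retinol-binding protein gene used to label layer V, averaged 12.2 CPM ± 0.976 at 1 week and 19.8 CPM ± 3.38 without delay (log2 fold change -0.64, limma adjusted p = 0.00147). In all 3, every 1-week library lay below every no-delay library.

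Of 18 other upper-layer genes, 2 rose, 3 fell and 13 were not called, with a median log2 fold change of -0.04. The share that fell is near the 13.4% of all genes tested, and the share that rose is below 23.4%. Unc5d, a netrin receptor gene, averaged 30.1 CPM ± 7.93 at 1 week and 44.3 CPM ± 8.48 without delay (log2 fold change -0.56, limma adjusted p = 0.0249), and the POU factor gene Pou3f1 averaged 8.40 CPM ± 1.38 at 1 week and 12.4 CPM ± 1.80 without delay (log2 fold change -0.52, limma adjusted p = 0.00997). Plxnd1, a semaphorin receptor gene that is also active in endothelium, averaged 35.2 CPM ± 7.58 at 1 week and 26.8 CPM ± 2.57 without delay (log2 fold change 0.36, limma adjusted p = 0.0424, and 0.23 without the 1-week library tagged tgacca). The Unc5d call was lost without the 1-week libraries tagged acagtg or atcacg or the no-delay libraries tagged atcacg or cgatgt (adjusted p from 0.0555 to 0.0778). The Plxnd1 call was lost in 6 of 8 omissions, all but those of the cgatgt libraries (adjusted p from 0.0540 to 0.0958), and with TMM scaling none of the 18 were called higher and 5 were called lower. When a library was left out, from 0 to 4 of the 18 were called higher and from 1 to 4 lower, with 4 higher and 1 lower without the no-delay library tagged cgatgt and 1 higher and 1 lower without the 1-week library tagged atcacg.

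**Figure D4:**
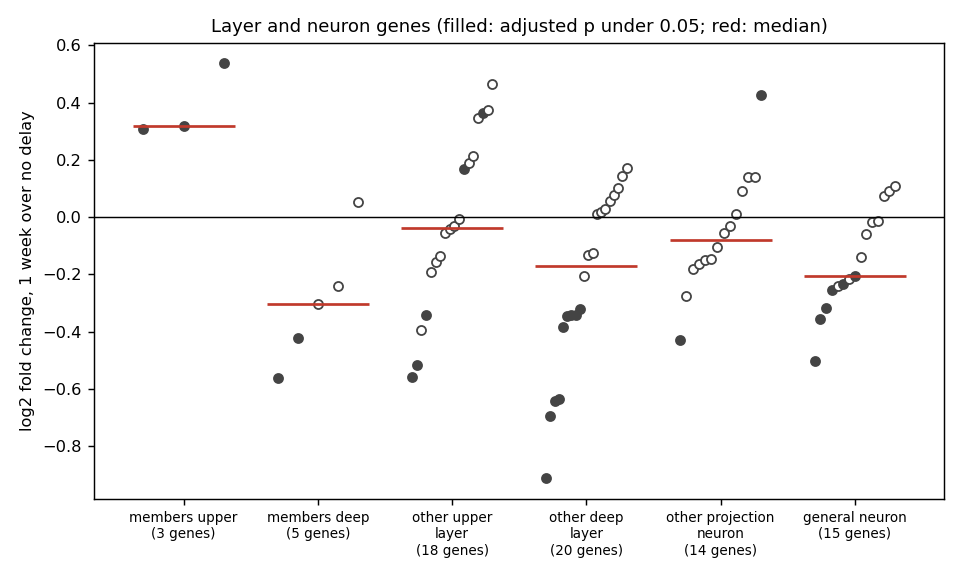
Log2 fold change, 1 week over no delay (vertical axis), of the 3 upper-layer and 5 deep-layer members and of the genes of 4 lists, 1 point per gene, filled where the adjusted p is under 0.05, with the list's median as a red line. The medians are 0.32 and -0.31 for the members, -0.04 for other upper-layer genes, -0.17 for other deep-layer genes, -0.08 for other projection neuron genes and -0.20 for general neuron genes.

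Genes of projection neurons and of neurons at large were read in the same way. Of 14 further projection neuron genes, 1 rose, 1 fell and 12 were not called (of all genes tested, 23.4% rose and 13.4% fell). Their median log2 fold change was -0.08. The number that fell was 2 without the 1-week library tagged tgacca, the no-delay library tagged acagtg or the one tagged cgatgt. The vesicular glutamate transporter gene Slc17a7, which defines cortical excitatory neurons and is named outside the rule, was present in every library, at 523 CPM ± 62.6 at 1 week and 560 CPM ± 28.5 without delay (limma adjusted p = 0.373). Nell2, a secreted factor of neurons, averaged 289 CPM ± 18.9 at 1 week and 390 CPM ± 21.2 without delay (SD, n = 4 each, log2 fold change -0.43, limma adjusted p = 3.59e-04). Nfia, a transcription factor gene that astrocytes also express, averaged 55.1 CPM ± 2.54 at 1 week and 40.8 CPM ± 4.02 without delay (log2 fold change 0.43, limma adjusted p = 0.00143). Of 15 general neuron genes, 6 fell, none rose and 9 were not called (of all genes tested, 13.4% fell and 23.4% rose). Their median was -0.20. The RNA-binding protein genes Elavl3, Elavl4 and Rbfox3 fell, with log2 fold changes of -0.50, -0.36 and -0.32 (limma adjusted p = 0.00253, 0.00551 and 0.00646). Of the 15, 3 were called lower when the 1-week library tagged atcacg or tgacca, or the no-delay library tagged acagtg, was left out.

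When each library was centred on its mean over the general neuron genes, the directions of the 9 genes stayed as they were. The general neuron gene matched by synonym was not part of that mean. The median over all genes tested moved to 0.21 on the log2 scale. Rorb, Cux1 and Cux2 had log2 fold changes of 0.69, 0.46 and 0.47 (limma adjusted p = 4.51e-05, 0.00413 and 0.00482), and Fezf2, Bcl11b and Neurod6 had -0.41, -0.27 and -0.35 (limma adjusted p = 0.0062, 0.0440 and 0.0225). Tbr1 and Foxp2 were nearer to 0, at -0.09 and -0.15 (limma adjusted p = 0.412 and 0.371). Tle4 was at 0.21, level with that median (limma adjusted p = 0.0533). In the same fit the calls of Unc5d, Pou3f1, Elavl4 and Rbfox3, given above, were lost (limma adjusted p = 0.0810, 0.0574, 0.0655 and 0.155). Elavl4 and Rbfox3 are among the genes used for the centring, which removes the mean change of those genes. The loss of these calls was therefore partly built in for Elavl4 and Rbfox3. Of the 20 other deep-layer genes, 4 were lower and 3 were higher in this fit. Of the 18 other upper-layer genes, none were lower and 3 were higher in it. Of all 14718 genes tested, 823 were lower and 6262 were higher.

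**Figure D5:**
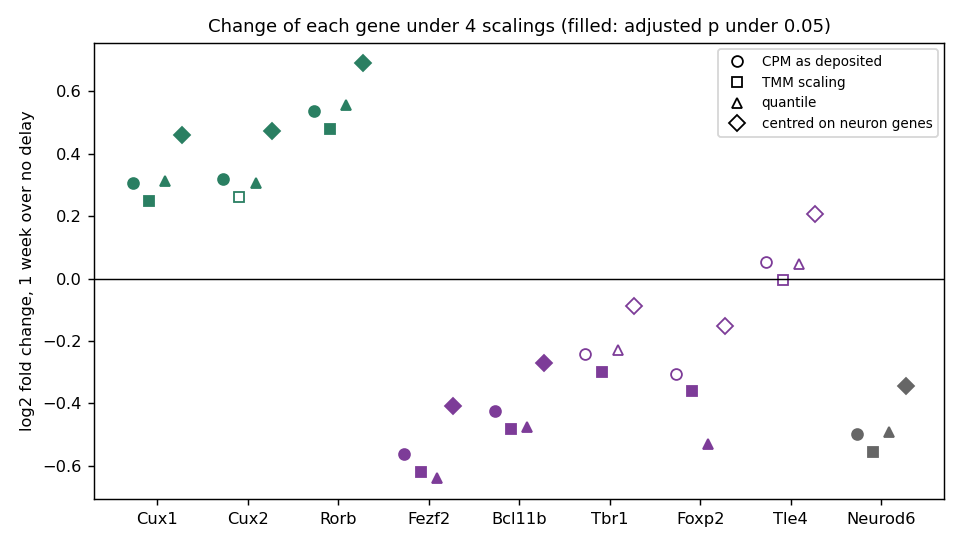
Log2 fold change, 1 week over no delay (vertical axis), of each gene in the deposited CPM, after TMM scaling, after quantile normalization and after centring on general neuron genes, filled where the adjusted p is under 0.05. Rorb, Fezf2, Bcl11b and Neurod6 are filled in all 4, and Tle4 lies at or near 0 in the first 3, at 0.05, -0.004 and 0.05.

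Markers of other cells differed between the same libraries, in which 23.4% of all genes tested rose and 13.4% fell. All 10 microglia genes rose, and their summed level was 1823 to 2652 CPM at 1 week and 516 to 533 CPM without delay. All 10 astrocyte genes rose, with summed levels of 4828 to 5590 CPM at 1 week and 2259 to 2577 CPM without delay. Of 8 endothelial genes 7 rose (261 to 311 CPM at 1 week and 165 to 183 CPM without delay), and of 11 oligodendrocyte lineage genes 7 rose (2426 to 4064 CPM at 1 week and 1528 to 3418 CPM without delay, with overlap). None of these 39 markers fell, and none was at 0 in either group. Their part in the levels of Cux1, Cux2 and Rorb was not tested.

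Striatal genes were looked at because Bcl11b and Foxp2 are also striatal genes. Of 12 such genes, 10 were tested, of which 6 fell and none rose (of all genes tested, 13.4% fell and 23.4% rose). The median log2 fold change of these 10 was -0.37. The summed level of all 12 was 332 to 429 CPM at 1 week and 364 to 508 CPM without delay. Penk, which encodes proenkephalin, averaged 18.6 CPM ± 5.88 at 1 week and 42.7 CPM ± 8.99 without delay (SD, n = 4 each, log2 fold change -1.18, limma adjusted p = 5.76e-04). Tac1, which encodes the substance P precursor, averaged 4.61 CPM ± 2.21 at 1 week and 11.2 CPM ± 2.26 without delay (log2 fold change -1.18, limma adjusted p = 0.00167). The dopamine receptor gene Drd2 was at 0.07 to 1.09 CPM at 1 week and 0.46 to 4.30 CPM without delay, with overlap (log2 fold change -1.17, limma adjusted p = 0.0249), a call that was lost without the 1-week libraries tagged cgatgt (adjusted p = 0.0711) or tgacca (adjusted p = 0.0549). Without the 1-week library tagged acagtg, or any no-delay library but the one tagged atcacg, Drd2 did not pass the filter and was not tested, and over the alternatives in which it was tested its log2 fold change ran from -2.68 to -0.44. Isl1, also named outside the rule, was at 0 in all 1-week libraries and at most at 0.2 CPM without delay. Ppp1r1b, named although the rule for naming genes did not pick it, averaged 139.6 CPM at 1 week and 139.9 CPM without delay (limma adjusted p = 0.929). The part of striatal tissue in the Bcl11b and Foxp2 values was not tested.

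For each of the 9 genes, the gene with the most similar profile over the 8 libraries was taken from 11103 genes with a mean of 5 CPM or more, by the root-mean-square distance between log2(CPM + 1) values centred on their own mean. For Rorb this was Slc9a9, a sodium/proton exchanger gene, at a distance of 0.04 (mean 65.5 CPM at 1 week and 45.5 CPM without delay). For Bcl11b it was the histone deacetylase gene Hdac9 at 0.08 (20.8 CPM at 1 week and 28.3 CPM without delay), and for Neurod6 the serotonin receptor gene Htr1f at 0.07 (26.1 CPM at 1 week and 35.0 CPM without delay). For Fezf2 it was Cwh43 at 0.10, for Cux1 Lrrc57 at 0.04, for Cux2 Zfp658 at 0.06, for Tbr1 Prss36 at 0.07, for Foxp2 Plekhg5 at 0.10 and for Tle4 Timm13 at 0.03. These are descriptions, in which the group difference is part of the profile.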

How the data were processed

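Mouse brain tissue around a cortical aspiration cavity was measured in 8 CAGE libraries, 4 from the 1-week group and 4 from the no-delay group. Per the labels' protocols, reads were single-end and 75 nt long on a NextSeq 500, and the submitters' processing notes name BWA 0.5.9 and build mm9. How tags were assigned to genes is not given in the sources used here. A single table was deposited by the authors, with CPM values for 17644 genes. Its column names give the group and a tag, not a replicate number, so columns were mapped to groups. The tag's last 3 bases differ between the groups and are the same within each, so any effect of them and of the group cannot be told apart. Nothing says that samples came from separate animals, so the p-values rest on the spread among these samples, which may be technical.

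Whole reads were recovered from the CPM values (100% of values whole within 0.1 reads), giving 8278855 to 13998941 reads per library. The limit for a gene at 0, taken as 3 reads, lies at 0.214 to 0.362 CPM and covers counting error only.

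Log2(CPM + 1) values of the 14718 genes with 1 CPM or more in at least 4 libraries were tested in limma 3.58.1 (R 4.3.3) with its trend option, 2-sided, with Benjamini-Hochberg adjustment over all of them and calls at adjusted p under 0.05. Each fold change is 1-week over no-delay tissue and understates the change of low genes. Alternatives were pseudocounts of 0.25 and 5, no filter and a filter at 5 CPM, TMM, median-of-ratios, quantile and neuron-gene scaling, limma without the trend, edgeR 4.0.16 and DESeq2 1.42.0 on recovered reads (all genes called: 5490 with edgeR and 5561 with DESeq2, against 5410 with limma), and leaving out each library; a block by tag was added after seeing the data. The procedure was tested on simulated reads.

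The members and the 10 further lists (130 entries, all matched, 2 of them by synonym in RefSeq) were chosen with earlier results of these data known. Named besides the members were, of each neuronal and striatal list, up to 3 called genes with the largest absolute log2 fold change, and the closest profile of each member; Slc17a7, Isl1 and Ppp1r1b are exceptions to this rule. Promoter sequences come from RefSeq on GRCm38.p6. No coordinates on mm9 are given.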

Additional observations from a re-analysis of the deposited data

Results flagged for a closer look

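Among 20 groups of 4 values looked at (each gene and the upper minus deep difference in each group), 1 had a library far from the others, and chance flags about 1 in 20. Cux2 stood at 58.4 CPM in the no-delay library tagged cgatgt and at 47.0 to 48.3 CPM in the other no-delay libraries. The same library had the highest no-delay values of Cux1, at 84.1 CPM, and of Rorb, at 81.8 CPM, and also of the deep-layer genes Foxp2, at 17.3 CPM, and Tle4, at 64.0 CPM, and the lowest of Fezf2, at 30.8 CPM, of Tbr1, at 83.5 CPM, and of Neurod6, at 94.7 CPM.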

How the results depend on the processing

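Rorb, Fezf2, Bcl11b and Neurod6 kept their direction and call under all 19 alternatives. Of the 9 genes, 3 were called lower with CPM as deposited and 5 with edgeR, DESeq2, TMM or median-of-ratios scaling, where Tbr1 and Foxp2 were added. The count of all genes called lower was 2567 with edgeR, 2762 with DESeq2, 2586 with TMM and 2721 with median-of-ratios scaling, against 1971 as deposited. Of the 9, 3 were called higher as deposited and 1 with median-of-ratios scaling; when a library was left out, from 1 to 3 were called higher and from 3 to 4 lower, with 1 higher without the 1-week library tagged tgacca or any no-delay library but the one tagged cgatgt. The Cux1 call was also lost with edgeR (adjusted p = 0.0524) and DESeq2 (adjusted p = 0.0526) and the Cux2 call with TMM (adjusted p = 0.0520) and median-of-ratios scaling (adjusted p = 0.0566), and over these 19 alternatives the adjusted p of Cux1 ranged from 0.00356 to 0.0680 and that of Cux2 from 0.00482 to 0.0751. Tle4 changed sign at -0.0033 with edgeR, -0.0114 with DESeq2, -0.004 after TMM and -0.0128 after median-of-ratios scaling. The upper minus deep difference was 0.62 to 0.75 when a library was left out and 0.46 with Neurod6 among the upper-layer genes. Over all genes, 4006 to 5339 were called when a library was left out, against 5410. The number lower was 3211 with quantile normalization and 823 when centred on neuron genes, where 6262 were higher against 3439. The cause of these differences was not tested. No paired analysis was possible because the column names carry no replicate numbers. Each 6-base tag occurs once in each group, and with the tag as a block, an alternative added after seeing the data, all genes called numbered 5470, the call of each of the 9 genes was unchanged, and that of Plxnd1 was lost (adjusted p = 0.0602). Deviations from the group means of libraries that share a tag had correlations of -0.03 to 0.18 over 14718 genes. Those of libraries with different tags were -0.16 to 0.09. The highest value of all was that of the tgacca pair, while the other same-tag pairs lay within the range of the different-tag pairs. This does not show that the tags pair the samples. Foxp2, with as few as 108 reads in a library, is the member with the widest interval.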

Other observations

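Among 12 interneuron genes, 2 rose, 1 fell and 9 were not called (of all genes tested, 23.4% rose and 13.4% fell), with a median log2 fold change of -0.08. Pvalb, the parvalbumin gene of fast-spiking interneurons, stood at 92.8, 103, 102 and 81.0 CPM in the 1-week libraries and at 62.5, 66.0, 39.9 and 45.8 CPM in the no-delay libraries. Every 1-week library was above every no-delay library (log2 fold change 0.83, SE 0.14, limma adjusted p = 6.83e-04). Sox6, a factor of the same interneuron lineage and of oligodendrocyte precursors, averaged 19.6 CPM ± 2.26 at 1 week and 11.4 CPM ± 1.78 without delay (log2 fold change 0.73, limma adjusted p = 5.58e-04). Sst, the somatostatin gene, averaged 276 CPM ± 48.6 at 1 week and 364 CPM ± 35.4 without delay (SD, n = 4 each, log2 fold change -0.41, limma adjusted p = 0.0124), a call that was lost when libraries were centred on general neuron genes (adjusted p = 0.0706).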
